A study of Drosophila melanogaster with 20 samples.

Results

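Lysosomal hydrolases are the enzymes that take apart sugars, sulfated polysaccharides and proteins inside the acidic lysosome, and 6 of the 11982 genes named on the array were followed here across SPS1 knockdown in Drosophila SL2 cells. They are the mannosidase genes LManI and LManII, the galactosidase gene Ect3, the sulfatase genes Sgsh and Ids, and the cathepsin gene CtsL1. They were chosen by name from genes whose RNA had already been seen to differ between SPS1 dsRNA and untreated cells in these arrays, with Ids moving against the others. Their differences between SPS1 dsRNA and untreated cells are therefore given as a description, without a test. Each gene was read by 1 probe set, so 6 of 18769 tested probe sets are the subject.

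SL2 is an established line of Drosophila embryonic origin that resembles blood cells. One set of cultures was given double-stranded RNA, or dsRNA, in the medium to knock down SPS1, the gene of selenophosphate synthetase 1, and the other set was left untreated. The SPS1 dsRNA groups held 5 samples at day 1, 2 at day 3 and 2 at day 5, and the untreated groups held 5, 2 and 2 on the same days. All were SL2 cells grown in HyQ SFX-Insect medium, and the labels name no further genotype or agent. Untreated cells received no dsRNA, so SPS1 loss and exposure to dsRNA cannot be told apart. For the day 5 SPS1 dsRNA samples the source field reads as untreated, and the titles, which name SPS1 dsRNA, set the group. No probe set carried the name of the targeted gene, so its level was not analysed here. The labels call the samples biological replicates without saying what separates them, so the p-values measure the spread between these samples.

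RNA was measured on Affymetrix Drosophila Genome 2.0 arrays, and every level below is a log2 value from RMA, the authors' background correction, normalization and summary of the probes of a set. A difference of 1 is a doubling. Array medians lay between 4.53 and 4.69 and lower quartiles between 3.73 and 3.87, and the number of arrays limits the precision. Levels of different genes are not set against each other, because probe sets differ in brightness. In RNA from a whole culture, fewer cells of a kind and less RNA per cell cannot be told apart.

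Lysosomal enzymes are made in the endoplasmic reticulum and carried to the lysosome, where each removes one kind of unit from material brought in from outside the cell or from the cell itself. Mannosidases and galactosidases trim sugars from glycoproteins and glycolipids, sulfatases strip sulfate from glycosaminoglycans such as heparan sulfate, and cathepsins cut proteins. A sulfatase works only after a cysteine in its active site has been turned into formylglycine by a separate enzyme. Blood cells of the fly, above all the phagocytic plasmatocytes, engulf microbes and dying cells and deliver them to lysosomes.

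Some features of single samples touch the values below. Of 153 pairs of samples, the 3 with the largest root mean square difference (0.408 to 0.442 log2 units, the next at 0.403) all involved SPS1 dsRNA replicate 1 of day 5. The library labelled untreated, day 1 replicate 4 had 7.76 for sgll, a vitamin B6 enzyme gene, against 8.45 to 8.70 in the other untreated day 1 samples and 7.64 to 8.14 in the SPS1 dsRNA day 1 samples. Each of the 2 technical arrays, which belong to the day 3 groups, was averaged with replicate 2 of its group. Samples of the same number and day deviated together from their group means, so differences within such pairs are given too.

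At day 5, LManI, LManII, Ect3, Sgsh and CtsL1 were higher in SPS1 dsRNA cells and Ids was lower, and the 2 groups did not overlap for any of the 6. At that day 35.3% of all probe sets had groups that did not overlap. In limma's test over all probe sets, 6 of 6 were past an adjusted p of 0.05, where 2.79% of all probe sets were (1.19% higher and 1.59% lower). The genes were chosen on this contrast, so nothing is read from that count. At day 3, 5 of 6 genes had groups that did not overlap, against 24.3% of all probe sets. By limma 0 of 6 were past the threshold at day 3, where 0.176% of all probe sets were. At an unadjusted p of 0.05 there were 3 of 6 that day, where 3.37% of all probe sets were, and the choice of the genes used these values too. With the replicate number as a block 2 of 6 were past it at day 3, LManII higher and Ids lower, against 1.25% of all probe sets. At day 1, 1 of 6 genes had groups that did not overlap, against 0.362% of all probe sets, and 0 of 6 were past the threshold by limma, also with the block, against 0% of all probe sets. At an unadjusted p of 0.05 there were 0 of 6 at day 1, against 1.55% of all probe sets. The choice of the genes rests on the contrasts of days 1, 3 and 5. Nothing is therefore read from any of these counts, with or without the block.

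**Figure D1:**
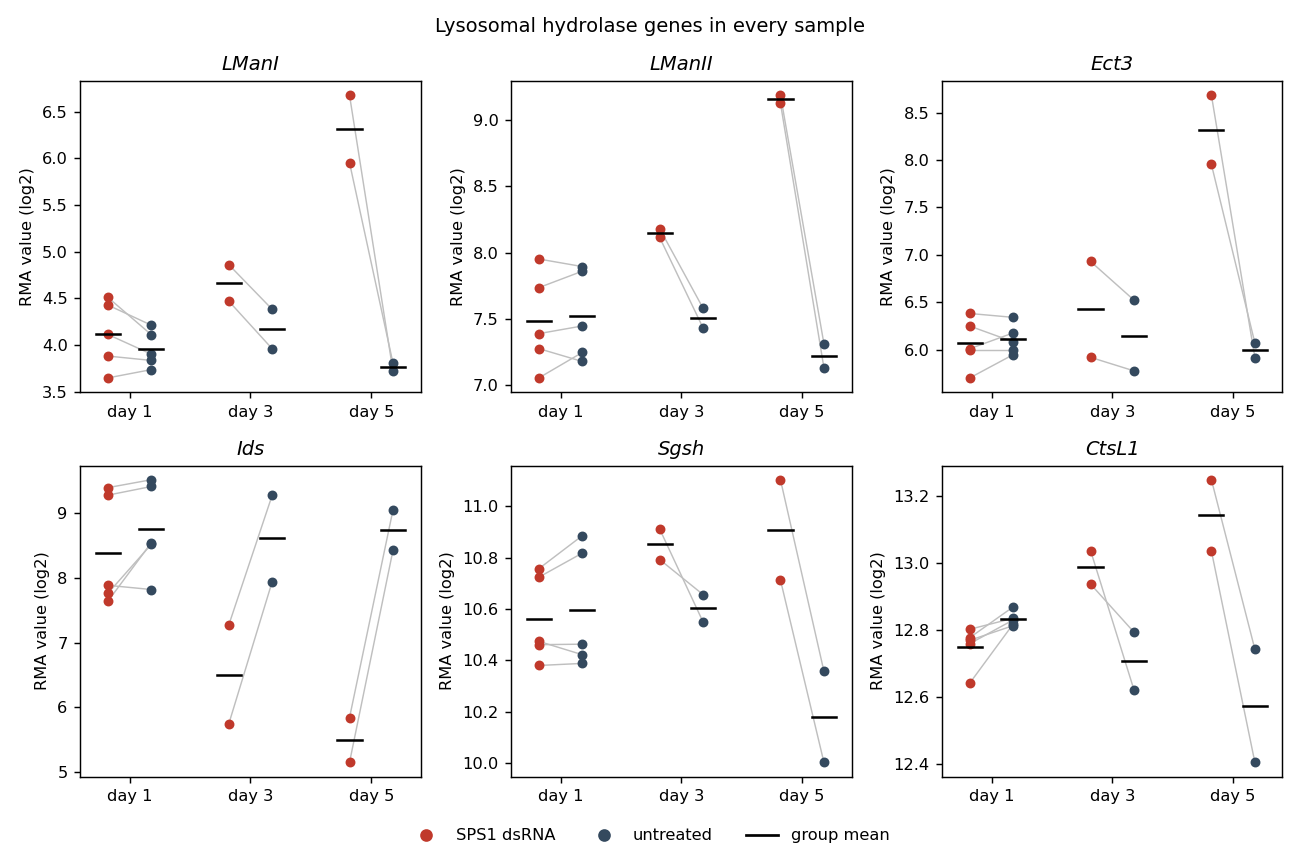
Log2 RMA values (y axis) of the 6 genes in each sample at days 1, 3 and 5 (x axis), with SPS1 dsRNA samples in red, untreated samples in dark blue, black bars for group means and grey lines joining samples of the same number. At day 5 the 2 SPS1 dsRNA samples lie above both untreated samples for LManI, LManII, Ect3, Sgsh and CtsL1, and below both for Ids.

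LManI encodes a lysosomal alpha-mannosidase, an enzyme that cuts mannose from the ends of N-glycans. At day 1 its values were 4.43, 4.12, 3.65, 3.88 and 4.51 in SPS1 dsRNA replicates 1 to 5, against 4.21, 3.90, 3.74, 3.84 and 4.11 in untreated replicates 1 to 5. The 2 groups overlapped, and all 10 values lay below the array medians. At day 3 the values were 4.47 and 4.86 in SPS1 dsRNA cells, against 3.96 and 4.38 in untreated cells. At day 5 they were 5.95 and 6.68 in SPS1 dsRNA cells, against 3.81 and 3.72 in untreated cells. Both day 5 SPS1 dsRNA samples stood above every other sample of the series for this gene, and the untreated samples of day 5 lay near the lower quartiles. The difference was 0.16 at day 1 (SE 0.17), 0.49 at day 3 (SE 0.27) and 2.55 at day 5 (SE 0.27), the last a 5.86-fold higher level. The day 3 difference was 0.28 without untreated replicate 1 and 0.30 without SPS1 dsRNA replicate 2 of that day. Within pairs of the same number, SPS1 dsRNA was higher in 4 of 5 pairs at day 1, by 0.48 and 0.51 at day 3, and by 2.15 and 2.95 at day 5.

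LManII, which lies next to LManI on chromosome 2L in the RefSeq gene order, encodes a second lysosomal alpha-mannosidase. Its day 1 values were 7.74, 7.06, 7.28, 7.39 and 7.95 in SPS1 dsRNA cells, against 7.86, 7.25, 7.18, 7.45 and 7.89 in untreated cells. The groups overlapped, and replicates 1 and 5 were the 2 highest of each. At day 3 the values were 8.12 and 8.18 in SPS1 dsRNA cells, against 7.43 and 7.58 in untreated cells, and at day 5 they were 9.19 and 9.13 in SPS1 dsRNA cells, against 7.31 and 7.13 in untreated cells. The groups were apart on both days. The difference was -0.04 at day 1 (SE 0.16), 0.64 at day 3 (SE 0.26) and 1.94 at day 5 (SE 0.26), a 3.83-fold higher level at day 5. The pairs differed by 0.60 and 0.68 at day 3 and by 1.88 and 2.00 at day 5. Both mannosidase genes had their highest group mean in SPS1 dsRNA cells at day 5 and their next highest in SPS1 dsRNA cells at day 3, and the ranges of these groups and of the next one did not meet. The remaining 4 groups overlapped with their neighbours in the order. For LManI the SPS1 dsRNA samples of day 3, at 4.47 and 4.86, did overlap with those of day 1, where replicate 5 had 4.51. Whether the probes of either set also bind RNA of the neighbouring gene was not tested.

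Ect3 encodes a beta-galactosidase, which removes galactose from glycans. At day 1 it had 6.248, 5.701, 6.009, 5.996 and 6.381 in SPS1 dsRNA cells, against 6.082, 5.947, 6.176, 5.996 and 6.340 in untreated cells. At day 3 it had 5.92 and 6.93 in SPS1 dsRNA cells, against 5.78 and 6.52 in untreated cells. The groups overlapped on both days, and at day 3 replicate 2 was the higher sample in either group. At day 5 it had 8.69 and 7.95 in SPS1 dsRNA cells, against 5.91 and 6.07 in untreated cells. The lower of the 2 SPS1 dsRNA samples was above every sample of day 1 and day 3. The difference was -0.04 at day 1 (SE 0.19), 0.28 at day 3 (SE 0.31) and 2.33 at day 5 (SE 0.31), a 5.02-fold higher level at day 5. Without SPS1 dsRNA replicate 2 of day 3 the day 3 difference was -0.23. Within pairs the differences were 0.14 and 0.41 at day 3 and 2.77 and 1.89 at day 5.

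Sgsh encodes N-sulfoglucosamine sulfohydrolase, a sulfatase that removes N-linked sulfate from heparan sulfate. Its day 1 values were 10.72, 10.47, 10.38, 10.46 and 10.76 in SPS1 dsRNA cells, against 10.82, 10.42, 10.39, 10.46 and 10.89 in untreated cells. At day 3 they were 10.91 and 10.79 in SPS1 dsRNA cells, against 10.55 and 10.66 in untreated cells. At day 5 they were 11.104 and 10.713 in SPS1 dsRNA cells, against 10.357 and 10.002 in untreated cells. The groups overlapped at day 1 and were apart at days 3 and 5, and the lower day 5 SPS1 dsRNA sample lay within the range of day 1. The difference was -0.04 at day 1 (SE 0.12), 0.25 at day 3 (SE 0.19) and 0.73 at day 5 (SE 0.19), a 1.66-fold higher level at day 5. The 2 pairs at day 5 differed by 0.75 and 0.71. Part of the day 5 difference was on the untreated side, where the mean was 10.18 ± 0.25 at day 5 (SD, n = 2) and 10.60 ± 0.24 at day 1 (SD, n = 5). In that day 1 group replicates 1 and 5 had 10.82 and 10.89, and the others had 10.39 to 10.46. The size of the untreated part thus depends on which day 1 samples enter the mean.

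Ids encodes iduronate 2-sulfatase, which removes sulfate from iduronic acid in heparan and dermatan sulfate, and it moved the other way. At day 1 it had 9.28, 7.64, 7.76, 7.89 and 9.40 in SPS1 dsRNA cells, against 9.42, 8.55, 8.52, 7.82 and 9.52 in untreated cells. The groups overlapped, replicates 1 and 5 were the 2 highest of each, and the lowest untreated value was that of replicate 4. At day 3 the values were 5.74 and 7.27 in SPS1 dsRNA cells, against 7.94 and 9.28 in untreated cells. At day 5 they were 5.14 and 5.84 in SPS1 dsRNA cells, against 8.43 and 9.05 in untreated cells. The groups were apart on both days, and replicate 2 was the higher sample in each of these 4 groups. The day 5 SPS1 dsRNA samples were still above the array medians.

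The difference for Ids was -0.37 at day 1 (SE 0.43), -2.11 at day 3 (SE 0.68) and -3.25 at day 5 (SE 0.68). On the linear scale that is a 4.32-fold lower level at day 3 and a 9.52-fold lower level at day 5. The standard errors were the widest of the 6 genes, while the differences within pairs lay close together at days 3 and 5. They were -2.21 and -2.01 at day 3 and -3.29 and -3.22 at day 5, and with the replicate number as a block the standard error for Ids at those days was 0.20. At day 1 the pairs ran between -0.91 and 0.07, with SPS1 dsRNA lower in 4 of 5. With each day 1 sample left out in turn the day 1 difference lay between -0.62 and -0.18, and it was -0.61 without untreated replicate 4. Without SPS1 dsRNA replicate 1 of day 3 the day 3 difference was -1.34. The group means in SPS1 dsRNA cells were 8.39 ± 0.87 at day 1 (SD, n = 5), 6.50 ± 1.08 at day 3 and 5.49 ± 0.49 at day 5 (SD, n = 2 each), and the ranges of days 3 and 5 overlapped. In untreated cells they were 8.77 ± 0.71 at day 1 (SD, n = 5), 8.61 ± 0.95 at day 3 and 8.74 ± 0.44 at day 5 (SD, n = 2 each), all overlapping.

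CtsL1 encodes a cathepsin L, a cysteine protease of the lysosome, and its samples lay closest together at day 1. At day 1 it had 12.64, 12.76, 12.80, 12.77 and 12.78 in SPS1 dsRNA cells, against 12.82, 12.83, 12.84, 12.81 and 12.87 in untreated cells. All 5 SPS1 dsRNA samples were below all 5 untreated samples on that day. At day 3 the values were 12.94 and 13.04 in SPS1 dsRNA cells, against 12.79 and 12.62 in untreated cells, and at day 5 they were 13.04 and 13.25 in SPS1 dsRNA cells, against 12.41 and 12.74 in untreated cells. On these days the order of the groups was turned, with every SPS1 dsRNA sample above every untreated one. The difference was -0.08 at day 1 (SE 0.07), 0.28 at day 3 (SE 0.11) and 0.57 at day 5 (SE 0.11), a 1.48-fold higher level at day 5. The 5 pairs of day 1 differed by -0.18 to -0.03, while the pairs differed by 0.14 and 0.42 at day 3 and by 0.63 and 0.51 at day 5. The untreated mean was 12.57 ± 0.24 at day 5 (SD, n = 2) and 12.83 ± 0.02 at day 1 (SD, n = 5).

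**Figure D2:**
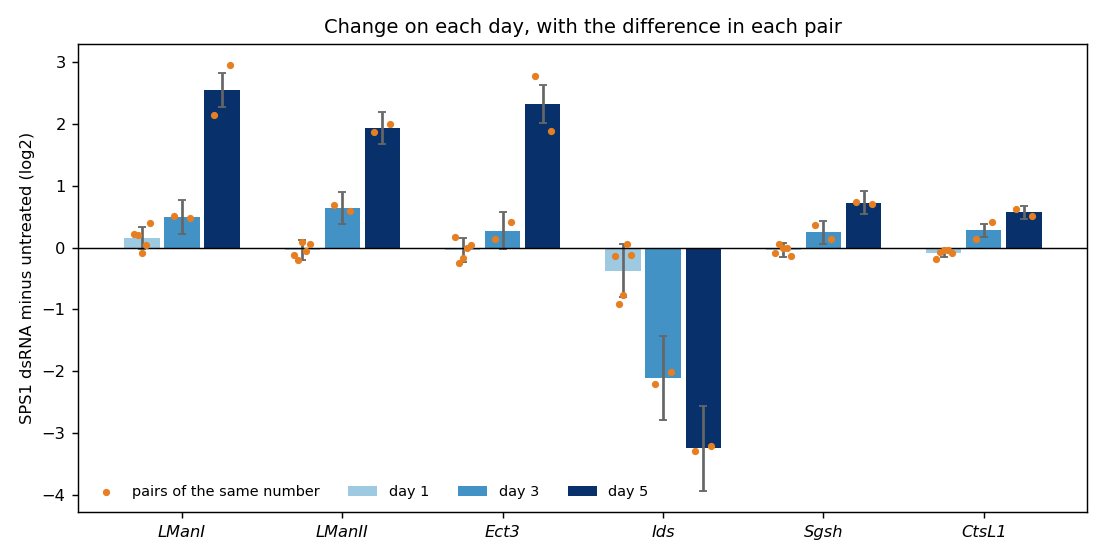
Difference between SPS1 dsRNA and untreated cells (y axis, log2) for the 6 genes (x axis) at days 1, 3 and 5, with bars for the fitted difference, error bars for its standard error and orange points for single pairs of the same replicate number. For Ids the 2 pairs of day 5 lie at -3.29 and -3.22, and the bars of LManI, Ect3 and LManII reach 2.55, 2.33 and 1.94 on that day.

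The day 5 differences varied in size among the 6 genes. LManI, Ect3 and LManII differed by 1.94 to 2.55 log2 units and Ids by -3.25, while Sgsh and CtsL1 differed by 0.73 and 0.57. SPS1 dsRNA replicate 1 of day 5 was the sample in the 3 pairs with the largest root mean square difference. Without it the day 5 differences were 2.91 for LManI, 1.91 for LManII and 1.96 for Ect3. For Ids, Sgsh and CtsL1 they were -2.90, 0.53 and 0.68 without it. The directions were as before, but Ids and Sgsh were then no longer past the threshold.

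The level of the 6 genes in untreated cells over time could be tested against day 1, although these samples also served as controls in the contrasts on which the genes were chosen. By limma 0 of 6 passed at day 3 or at day 5, with a background of 0.107% and 0.186% of all probe sets, and 0 of 6 passed with the replicate number as a random block. At an unadjusted p of 0.05 there were 0 of 6 at day 3, against 6.37% of all probe sets, and 2 of 6 at day 5, Sgsh and CtsL1, against 10.8%. All 6 means were below their day 1 mean at day 5. The largest differences were -0.42 for Sgsh (SE 0.16, adjusted p = 0.338) and -0.31 for LManII (adjusted p = 0.662), followed by -0.26 for CtsL1 (SE 0.09, adjusted p = 0.316). LManI, Ect3 and Ids differed by -0.20, -0.12 and -0.02, with adjusted p from 0.819 to 0.995. For LManI, LManII, Sgsh and Ids, replicates 1 and 5 were the 2 highest samples of each day 1 group. Differences from day 1 for these genes thus depend on which day 1 samples enter the mean.

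In SPS1 dsRNA cells the day 5 mean minus the day 1 mean was 2.20 for LManI, 1.68 for LManII, 2.25 for Ect3 and -2.90 for Ids. For these 4 genes most of the day 5 difference between the treatments was thus a departure of the SPS1 dsRNA cells from their own day 1 level. For Sgsh it was 0.35 in SPS1 dsRNA cells and -0.42 in untreated cells, and for CtsL1 it was 0.39 in SPS1 dsRNA cells and -0.26 in untreated cells. The untreated values of these genes rest on 2 samples. Without untreated replicate 1 of day 5 they were -0.59 for Sgsh and -0.09 for CtsL1, and without untreated replicate 2 they were -0.24 and -0.43. At day 3 the SPS1 dsRNA means had moved from day 1 by 0.55 for LManI, 0.67 for LManII, 0.36 for Ect3, 0.29 for Sgsh, 0.24 for CtsL1 and -1.89 for Ids.

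**Figure D3:**
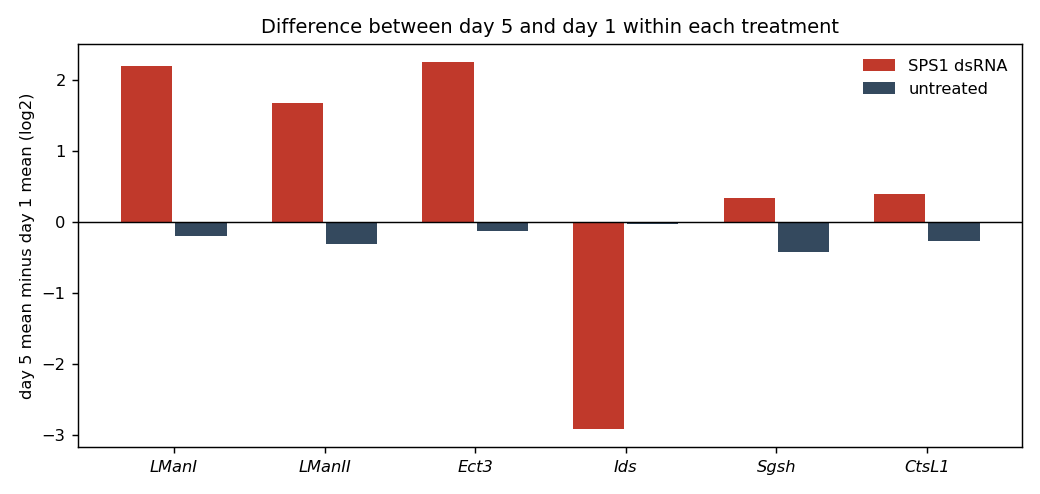
Day 5 group mean minus day 1 group mean (y axis, log2) for the 6 genes (x axis), in SPS1 dsRNA cells (red) and untreated cells (dark blue). The red bars reach 2.20, 1.68 and 2.25 for LManI, LManII and Ect3 and -2.90 for Ids, while all 6 dark blue bars lie between -0.42 and -0.02.

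Other enzymes and helper proteins of the lysosome, and relatives of them, were taken from lists of known genes, of which 59 of 67 were measured. Not all of the 59 are hydrolases of the lysosome, as they include CG7049, Hgsnat and the secreted Swim. They are called the other lysosomal hydrolase genes for short. At day 5 the cathepsin gene CtsL4, the acid sphingomyelinase gene CG3376 and the aspartic protease gene CG33128 were higher in SPS1 dsRNA cells, and CG7049, related to the enzyme that activates sulfatases, was lower. These 4 are 6.78% of the 59 genes, against 3.7% of all named genes. The median log2 difference over the 59 was 0.084, against 0.001 over all named genes. Of the 59, 42 lay above 0 and 17 below, against 5995 above and 5971 below of all named genes. With the replicate number as a block, 12 were higher and 3 lower, 25.4% of the 59, against 15.6% of all named genes. At day 3 limma called 0 of 59, and the block also called 0, against 1.67% of all named genes with the block. At an unadjusted p of 0.05 there were 3 of 59 at day 3, or 5.08%, close to the 4.05% of all named genes. Of the 59 genes, 22 had a mean log2 level above 6 and 37 had a lower one. In untreated cells at day 5 against day 1, the median over the 59 was -0.128, with 13 above 0 and 46 below. Over all named genes that median was -0.016, with 5475 above 0 and 6501 below. For some of the 59, such as cathD and Hgsnat, untreated replicates 1 and 5 of day 1 were above the other untreated day 1 samples. For others, such as Naglu, they were not. The differences from day 1 thus depend on which day 1 samples enter the mean. The part of the untreated side in the day 5 difference of the list was not tested.

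CG7049 had 8.19 and 9.03 at day 5 in SPS1 dsRNA cells, against 9.72 and 9.65 in untreated cells. Both SPS1 dsRNA samples were lower, replicate 1 by more than replicate 2, and without replicate 1 the difference was -0.66. The fitted difference was -1.08 (SE 0.18, limma adjusted p = 0.00235), in the direction of the sulfatase gene Ids and opposite to that of Sgsh. The other measured genes of its list, sulfatase genes and Hgsnat, did not pass in either direction without the replicate block. With the block 1 of them passed as higher.

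CtsL4, which encodes a relative of cathepsin L, had 8.51 and 8.20 in SPS1 dsRNA cells at day 5, against 7.69 and 7.67 in untreated cells, a difference of 0.67 (SE 0.10, limma adjusted p = 0.000968). CG3376 had 8.59 and 8.32 in SPS1 dsRNA cells, against 7.69 and 7.50 in untreated cells, a difference of 0.86 (SE 0.17, limma adjusted p = 0.00648). For CG3376 the untreated mean was 1.08 log2 units lower at day 5 than at day 1 (limma adjusted p = 0.00348), while the SPS1 dsRNA mean was lower by 0.22. Without SPS1 dsRNA replicate 1 of day 5 the CG3376 difference was 0.73 and no longer passed (limma adjusted p = 0.112), and without untreated replicate 2 it was 0.76 (limma adjusted p = 0.0965). CG33128, at 4.90 and 5.09 in SPS1 dsRNA cells and 4.49 and 4.69 in untreated cells, lay near the array medians and differed by 0.40 (limma adjusted p = 0.0398). Its call was lost in 8 of 18 fits that each left out 1 sample, with the technical arrays left out (limma adjusted p = 0.0673), with an intensity trend (0.0758), with arrays median-centred (0.207) and with cyclic loess (0.23). Without untreated replicate 1 of day 5 it was 0.30 (limma adjusted p = 0.339), and without SPS1 dsRNA replicate 2 it was 0.30 (limma adjusted p = 0.165). When only the 4 samples of day 5 were fitted, none of these 4 genes passed.

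By list, the other glycosidases had 0 of 14 measured genes past the threshold at day 5, with a median difference of 0.091. Their members LManIII, LManIV, LManV and LManVI, paralogs of LManI and LManII, differed by 0.10, 0.09, 0.04 and 0.08. LManIII, LManIV and LManVI lay between 3.13 and 3.85 in all samples, near or below the lower quartiles, and LManV lay near the medians, so small differences there say little. The other cathepsins and acid proteases had 2 of 23 higher (median 0.133), and the lipid, nucleic acid and other hydrolases 1 of 16 higher (median 0.011). The list of sulfatases and their activation, which also holds Hgsnat, had 1 of 6 lower (median 0.071). Outside the hydrolases, 0 of 9 lysosomal membrane and lipid transfer genes, 0 of 16 sorting genes, 0 of 22 genes of autophagy with Mitf, and 0 of 7 mannosidase and glycosidase genes of the endoplasmic reticulum, Golgi and cell surface passed by limma. Of all named genes 3.7% passed, so 0 in lists of this size says little. At an unadjusted p of 0.05 these 4 lists had 2, 0, 4 and 1 genes, and the other glycosidases 1, against 15.4% of all named genes. With the replicate block the 4 lists had 2, 3, 4 and 1 genes past the threshold, or 14.3% to 22.2% of each, near the 15.6% of all named genes. Mitf, the transcription factor that drives lysosomal genes in the fly, differed by -0.04 (limma adjusted p = 0.973) at a level below the array medians. Lerp, the sorting receptor for lysosomal enzymes, differed by -0.40 (limma adjusted p = 0.715, and 0.0269 with the replicate block).

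**Figure D4:**
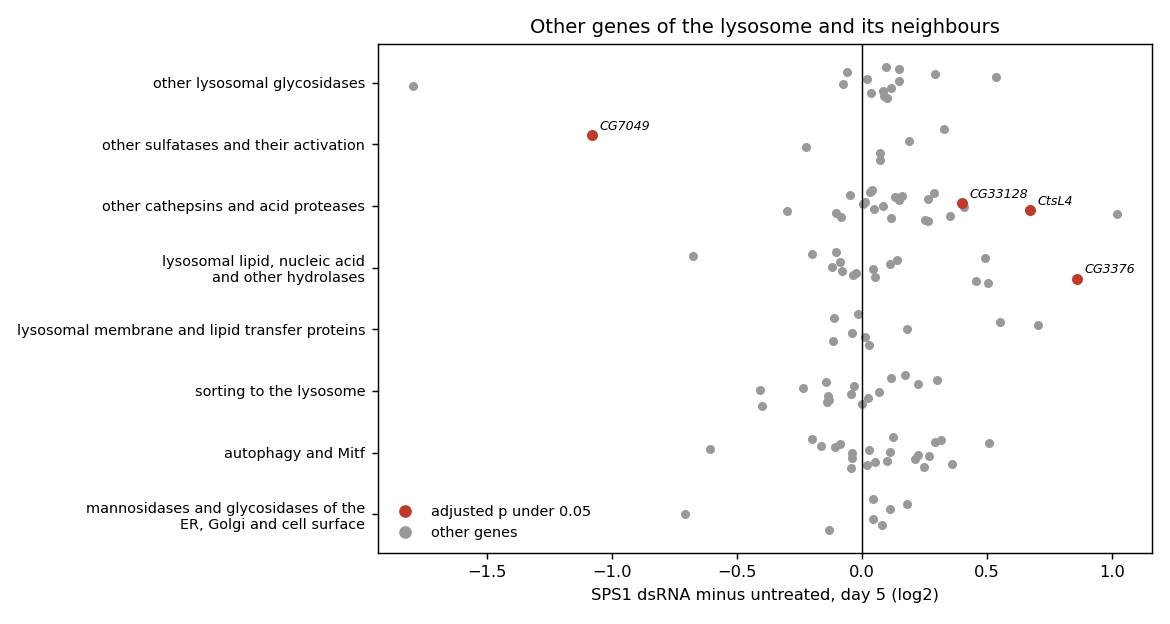
Difference between SPS1 dsRNA and untreated cells at day 5 (x axis, log2) for the measured genes of 8 lists around the lysosome (rows), 1 point per gene, with genes past an adjusted p of 0.05 in red and named. Most points lie close to 0, and the named genes are CG7049 at -1.08, CG33128 at 0.40, CtsL4 at 0.67 and CG3376 at 0.86.

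Some markers of plasmatocytes also differed at day 5. All 9 markers of plasmatocytes were measured, and 3 were higher in SPS1 dsRNA cells at day 5 (33.3%, against 3.7% of all named genes). The phagocytic receptor eater differed by 3.28 (limma adjusted p = 0.000179) and the peroxidasin gene Pxn by 2.35 (limma adjusted p = 0.000149). The engulfment receptor drpr differed by 1.21 (limma adjusted p = 0.0475). From day 1 to day 5 the SPS1 dsRNA means of eater, Pxn and drpr moved by 2.63, 1.93 and 0.71. Their untreated means moved by -0.69, -0.46 and -0.35. Untreated eater at day 5, at 3.84 and 3.86, lay near the lower quartiles of the arrays. The drpr call was lost in 9 of 18 fits that each left out 1 sample, with any of the 4 day 5 samples among them (limma adjusted p from 0.131 to 0.292), with arrays median-centred (0.0798) and with only the day 5 groups compared (0.0698). Of the 9 markers, 6 had an unadjusted p under 0.05 at day 5 (66.7%, against 15.4% of all named genes). With the replicate block 5 were past the threshold (55.6%, against 15.6%). The mean log2 level over the 9 genes was 7.04 to 7.46 in SPS1 dsRNA cells at day 5, against 6.23 to 6.32 in untreated cells. The median difference over the 9 was smaller, at 0.406, with 8 above 0 and 1, crq, below. The day 5 groups overlapped for crq, srp and vkg. At day 1 it was 6.36 to 6.72 in SPS1 dsRNA cells, against 6.31 to 6.75 in untreated cells. For 6 markers of crystal cells and lamellocytes, the other fly blood cells, the mean at day 5 was 4.93 to 5.03 in SPS1 dsRNA cells, against 5.24 to 5.27 in untreated cells, and 0 passed by limma, with 3 under an unadjusted p of 0.05 and 1 past the threshold with the block. For the 8 measured markers of neurons, muscle and fat body the day 5 mean was 4.57 to 4.76 in SPS1 dsRNA cells, against 4.71 to 4.75 in untreated cells. Of these 8, 0 passed by limma, at an unadjusted p of 0.05 or with the block. The part of these shifts in the hydrolase values was not tested.

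The named genes whose pattern was most like that of each hydrolase were found by Pearson's r over the 18 samples, among probe sets with a mean above 6. The 18 samples share treatments and days, and the day 5 SPS1 dsRNA samples set much of the range, so r is a description. Antimicrobial peptide genes stood nearest to Ect3, namely AttD (0.977), CecB (0.96) and DptB (0.957), and DptB also stood near LManI (0.952) and LManII (0.942). LManII was itself among the genes nearest to LManI (0.937), beside CG13384 (0.937), and the other genes near LManII were CG14629 (0.967) and the glycerol phosphate dehydrogenase gene Gpdh1 (0.952). Nearest to Ids were CG6659 (0.965), Fsn (0.952) and squ (0.942). Sgsh had lower values, with CG31075 (0.89), the glutamate dehydrogenase gene Gdh (0.887) and hdly (0.877). So did CtsL1, with gas (0.879), Gpdh1 by a different probe set than for LManII (0.877) and egr (0.872), the gene of the TNF ligand Eiger.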

How the data were processed

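The authors deposited one table of log2 values, made with RMA per the submitters' processing notes, for 18952 probe sets on 20 arrays. For the RMA version and any scan batches: not given in the sources used here. Deposited log2 values ran from 2.475 to 14.359 and were used without further scaling. RMA pulls changes of weak genes toward 0. The 183 control probe sets stayed out of the tests. Among the 18769 others, 13647 had 1 gene symbol in the platform annotation, 402 had several and 4720 were unnamed here. Of those with 1 symbol, 13544 matched the RefSeq gene table by Entrez identifier.

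The 2 technical arrays of day 3 were averaged with replicate 2, to which each lay closer (root mean square difference 0.195 SPS1 dsRNA, 0.226 untreated) than to replicate 1 (0.314 and 0.305). Groups came from the titles. All 18 samples entered 1 linear model over the 6 groups in limma 3.58.1 (R 4.3.3), with 12 residual degrees of freedom, and Benjamini-Hochberg adjustment over all tested probe sets at 0.05. The procedure was tested on simulated data.

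Replicate numbers come from the labels, which do not say what they mark. Deviations of same-numbered samples from their group means correlated at 0.689 to 0.838 over probe sets in the 5 pairs of day 1, 0.782 at day 3 and 0.712 at day 5, and were taken as pairs. Alternatives were a replicate block, median-centring, cyclic loess, an intensity trend, a mean log2 filter above 5, the technical arrays left out, only the groups compared, and each sample left out in turn. The differences within pairs and the contrast of the day 5 with the day 1 change were added after seeing the data.

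The members and lists were chosen with earlier results of these data known. In the counts over lists and over all named genes, a gene with several probe sets was represented by the set with the highest mean. Pxn had 2 sets, and its other set was not followed. Named genes were the members, up to 5 genes per list, direction and day past the threshold by size, Mitf, CG7049 and Lerp, and the 3 genes most like each member. Sequences of the genes and their proteins were not used here.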

Additional observations from a re-analysis of the deposited data

Results flagged for a closer look

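CtsL1 in SPS1 dsRNA replicate 1 of day 1, at 12.64, lay below the other 4 samples of its group by more than their spread; 1 of 30 groups of 5 samples had such a sample, and chance gives about 1 in 20. The CtsL1 difference between SPS1 dsRNA and untreated cells was 0.28 at day 3 and 0.57 at day 5 with every pair above 0, while every pair of day 1 was below 0, and the difference between days was not tested. For 5 genes that are not members, the day 5 difference between the treatments departed from the day 1 difference in limma's test over all probe sets. All 5 were already past the threshold at day 5, and that difference is part of this contrast. Their departure is therefore given as a description. The departure was 0.86 for CG3376 (adjusted p = 0.0371), -1.03 for CG7049 (adjusted p = 0.0207), 0.71 for CtsL4 (adjusted p = 0.0049), 2.39 for Pxn (adjusted p = 0.00128) and 3.32 for eater (adjusted p = 0.00163), with the direction shown by both day 5 pairs of each.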

How the results depend on the processing

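With the replicate number as a block, 234 probe sets passed at day 3 and 2293 at day 5 (33 and 523 without it), the other lysosomal hydrolase genes past the threshold at day 5 numbered 15 and the members past it at day 3 numbered 2. With only the 2 groups compared, which leaves fewer samples, 0 probe sets passed at day 3, 81 at day 5, 4 and 55 for untreated cells at day 3 and day 5 against day 1, and 0 other hydrolase genes at day 5. For untreated day 5 against day 1, 18 passed with arrays median-centred and 55 with cyclic loess, against 35, and the cause was not tested.

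With each sample left out in turn, the probe sets past the threshold numbered 0 to 1 at day 1, 11 to 47 at day 3 and 264 to 777 at day 5, and in untreated cells 5 to 92 at day 3 and 1 to 68 at day 5. The other hydrolase genes past it at day 5 numbered 3 to 5, and the members 3 to 6. Ids lost its day 5 call without SPS1 dsRNA replicate 1 or either untreated replicate of day 5 (-3.60 to -2.90 over all omissions), and CtsL1 without SPS1 dsRNA replicate 2 or untreated replicate 1 (0.40 to 0.74). Sgsh lost it in 13 of 18 omissions (0.53 to 0.92). Sgsh and CtsL1 also lost it with arrays median-centred and with only the 2 groups compared, and Sgsh with the technical arrays left out. LManI, LManII and Ect3 were past it in each setting that tested them, which is no sign of stability for genes chosen on this contrast; LManI was below the filter on low values.

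Differences near 0 changed sign. For untreated day 3 against day 1, LManII was 0.015 without the technical arrays and ran from -0.107 to 0.072 over the omissions, Ect3 from -0.33 to 0.41, Ids from -0.82 to 0.52 and Sgsh from -0.046 to 0.080. For untreated day 5, Ids was 0.032 with arrays median-centred and ran from -0.34 to 0.29. Mitf at day 5 ran from -0.20 to 0.12. With 2 samples a group at days 3 and 5 the precision is low, and LManI in untreated cells lies near the lower quartile of the arrays.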

Other observations

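Among the other hydrolase genes, Hexo2 and Swim had the widest day 5 differences that did not pass, and both were chosen here after their values were seen. Hexo2, which encodes a beta-hexosaminidase, had 6.91 and 8.57 in SPS1 dsRNA cells at day 5, against 9.45 and 9.62 in untreated cells, a difference of -1.80 (limma adjusted p = 0.132, and 0.00298 with the replicate block). Swim, which encodes a cathepsin B-related secreted protein, had 10.42 and 10.78 in SPS1 dsRNA cells, against 9.39 and 9.77 in untreated cells, a difference of 1.02 (limma adjusted p = 0.12, and 0.000587 with the replicate block). The untreated mean of Swim was 1.25 log2 units lower at day 5 than at day 1 (limma adjusted p = 0.0787). Its untreated day 1 values were 11.334 and 11.295 in replicates 1 and 5, and 10.355 to 10.724 in the others. All of them were above the untreated day 5 values, but the size of the difference depends on which day 1 samples enter the mean.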
